A study of Danio rerio with 12 samples.

Results

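The comparison described here set all 6 libraries of zebrafish larvae (Danio rerio) exposed to tritiated water against all 6 control libraries, with age as a block, and asks which transcripts differed by exposure at either age considered jointly. It used all 12 of the 12 libraries of the series, chosen by their labels alone. Every library was made from entire larvae of the AB strain kept at 28 °C from 3 h after fertilization. The exposed larvae received tritiated water (HTO), that is, water whose hydrogen is partly tritium, a radioactive isotope, giving 0.4 mGy/h (a dose rate, absorbed energy per mass and time), and were sampled at 7 or at 10 days post fertilization (dpf). Control larvae of the same strain and ages received none. Each of the 4 groups held 3 biological replicates, and how many larvae went into a library is not given in the sources used here. Exposed dishes were incubated within a glove box, whereas control dishes had an incubator of their own elsewhere in that room. Effects of tritium and of the place of incubation cannot be told apart in any value below.

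Tritium emits beta particles of low energy, and as water it spreads through the whole body, so that every tissue is irradiated from within. Ionizing radiation is known for breaking DNA, to which cells respond through repair proteins, arrest of the cell cycle and transcription of target genes such as cdkn1a and mdm2. At the ages studied a zebrafish larva feeds, relies on innate immunity (macrophages, neutrophils, interferons and the cytokines of epithelial barriers), and is still building its retina, lens, skin, skeleton and pigment pattern.

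Libraries held 19.4 M to 67.3 M reads on genes with a median of 44.4 M (M, mega). Markers of muscle, lens, photoreceptors, liver, pancreas, intestine, epidermis, neurons, macrophages and pigment cells were above 0 in every library. Exposed replicate 1 at 10 dpf stood apart on the second principal component (-79.7, against -24.8 to 33.8 in the other libraries), and its pancreas genes averaged 2.85 and its liver genes 2.3 log2 units below the mean of all libraries. Of the genes called lower below, control replicate 3 at 7 dpf was the lowest of the 3 controls at 7 dpf in 81.6%, against 38.1% of all genes tested. Of the genes called higher, it was the highest of these controls in 64.2%. The share of all genes in which it was the highest was not computed. Levels are given as CPM (read counts divided by the depth of the library in M reads, with TMM scaling), and group values as mean ± SD with n = 3 libraries. A fold change over both ages is exposed over control on the log2 scale, from edgeR's quasi-likelihood test, ± a standard error (SE). The test gives no SE of its own, and it was taken as the absolute log2 fold change over the square root of the test's F statistic.

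Over both ages 2454 of 23075 genes tested passed at an adjusted p under 0.05, which is 10.6% of them. Of these 874 were higher in exposed larvae (3.79% of the genes tested) and 1580 lower (6.85%). Falls were the larger changes, with a median log2 fold change of -0.55 among the genes called lower and 0.34 among those called higher, and of -0.004 over all genes. Only 25 rises were over 2-fold, against 408 falls. The sign was the same at 7 and at 10 dpf in 2449 of the called genes (10.6% of genes tested), 874 higher and 1575 lower. A gene called on the average of both ages will mostly have 1 sign by the way it was chosen, and over all genes, called or not, 61.8% had the same sign at both ages. The exposure effects at 7 and 10 dpf, which share no library, correlated with a Pearson's r of 0.50 across the 23075 genes, which are not independent replicates.

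A stricter description by libraries asks that all 3 exposed libraries lie above, or all below, the 3 controls at 7 dpf and again at 10 dpf. This held for 1152 called genes (4.99% of the genes tested), 449 higher and 703 lower, and for 1415 genes called or not (6.13%). Those named below as largest rises, largest falls or smallest p by the naming rule were drawn only from such called genes. Their lack of overlap follows from that choice. Effects were mostly larger at the later age. The median log2 fold change of the genes called higher was 0.26 at 7 dpf and 0.41 at 10 dpf, and that of the genes called lower was -0.43 and -0.63. Tested for each age in a fit of 4 group means to all 12 libraries, 119 genes passed at 7 dpf (0.516%) and 2721 at 10 dpf (11.8%). The 5 called genes with opposite signs were ifit9, CHST12, si:dkey-13n15.10, si:dkeyp-122a9.1 and a further gene known by a clone name, each lower over both ages and at 10 dpf, with fitted log2 values of 0.08 to 0.61 at 7 dpf. Their group means at 7 dpf were only 0.0430 to 0.130 CPM, and that of CHST12 was 0.123 CPM in exposed larvae and 0.130 CPM in controls despite its fitted value. At the threshold, adjusted p was 0.04996 for the last gene called and 0.0502 for the next. The count of 2454 was 1279 without control replicate 1 at 7 dpf, 1325 and 1498 without control replicates 1 and 2 at 10 dpf, 1523 without exposed replicate 3 at 10 dpf, 3631 without control replicate 3 at 7 dpf and 2091 without exposed replicate 1 at 10 dpf.

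**Figure D1:**
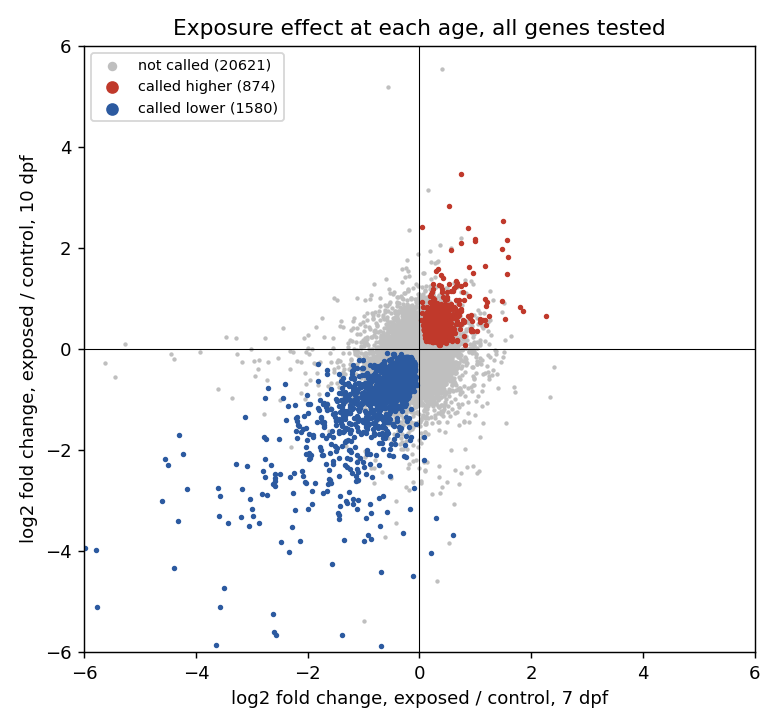
Log2 fold change of exposed over control larvae at 7 dpf (x axis) and at 10 dpf (y axis) for the genes tested, with 22 genes outside the range of ±6 not drawn. Red points are the 874 genes called higher over both ages and blue points the 1580 called lower, which lie mostly at the upper right and lower left, with falls reaching farther from 0 than rises.

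Genes of epithelia and of their cytokines were among the largest falls. EHF (ENSDARG00000052115), a transcription factor of the ETS family made in epithelia, stood at 9.16, 8.93 and 2.60 CPM in the controls and at 0.616, 0.952 and 0.665 CPM in exposed larvae at 7 dpf. At 10 dpf its controls held 13.7, 11.4 and 14.4 CPM and the exposed larvae 1.39, 2.37 and 1.93 CPM. The groups did not overlap at either age, which the naming rule required, although control replicate 3 at 7 dpf was well below the other controls. EHF fell by 2.94 ± 0.30 (SE) on the log2 scale (adjusted p = 0.000573). ELF3 (ENSDARG00000077982), a related epithelial factor, went from 52.2 ± 18.4 to 12.1 ± 2.19 CPM at 7 dpf and from 77.3 ± 9.55 to 24.8 ± 2.63 CPM at 10 dpf (log2 fold change -1.88 ± 0.19 SE, adjusted p = 0.000631). All 6 exposed libraries of ELF3, at 9.58 to 27.8 CPM, lay below all 6 controls, at 31.0 to 84.3 CPM.

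Of 34 epithelial ETS and barrier genes tested, 14 fell and 3 rose, with a median of -0.21 (over all genes 6.85% fell and 3.79% rose). The falls included claudins, which seal tight junctions (cldnf -0.97, cldne -0.93, cldna -0.89 and cldn7b -0.50), the grainyhead factors of surface epithelia GRHL1 (-0.78), grhl3 (-1.45) and grhl2a (-0.52), the epithelial repressor ovol1a (-1.03) and E-cadherin, cdh1 (-0.39). The 3 that rose encode parts of desmosomes, the spot junctions between epithelial cells: the desmosomal cadherin dsc2l (0.67), the plakophilin pkp3a (0.51) and desmoplakin, DSP (0.30). The number of rises here became 0 without exposed replicate 2 or 3 at 7 dpf, exposed replicate 2 or 3 at 10 dpf, control replicate 1 or 2 at 7 dpf or control replicate 2 or 3 at 10 dpf. It was 1 without exposed replicate 1 at 7 dpf. For cldnf the CPM of exposed larvae were 6.93, 8.5 and 7.46 at 7 dpf and 9.19, 10.8 and 9.72 at 10 dpf, against 18.4, 17.7 and 9.86 and 19.5, 17.6 and 19.6 in the controls, with no overlap. In entire larvae, fewer cells of a type and less RNA per cell cannot be told apart, here or in the groups below.

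Genes of interleukin 23 and interleukin 17 signalling, by which lymphocytes act on epithelia in mammals, were among the cytokine genes that fell. The ligand il17a/f1 (ENSDARG00000043933) had 0 reads in all 3 exposed libraries at 7 dpf and 0, 1 and 0 reads at 10 dpf, against 88, 52 and 10 reads in the controls at 7 dpf and 23, 13 and 14 at 10 dpf. Against a limit of 3 reads over the group, its level at 7 dpf was at least 47.3-fold lower than in controls. At 10 dpf, with 1 read in exposed larvae against 50 in controls, the level was 47.5-fold lower, with an exact 95% interval of 8.14 to 1914 that covers counting error only. A further member, il17a/f3, fell by 1.89.

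The receptor gene il23r (ENSDARG00000052158) stood at 1.15, 1.15 and 0.869 CPM in exposed larvae at 7 dpf and 1.93, 3.43 and 3.64 CPM at 10 dpf, against 3.21, 2.91 and 2.0 and 8.46, 7.83 and 7.41 CPM in controls. Its effect was nearly the same at both ages (-1.32 and -1.38), and the groups did not overlap at either. il17ra1a (ENSDARG00000058244), a chain of the interleukin 17 receptor, went from 8.87 ± 2.09 to 4.86 ± 0.412 CPM at 7 dpf and from 10.0 ± 0.564 to 4.85 ± 0.246 CPM at 10 dpf (log2 fold change -0.96 ± 0.11 SE, adjusted p = 0.000563). STAT3 (ENSDARG00000022712), the transcription factor that the interleukin 23 receptor activates, stood at 39.4, 44.2 and 38.0 CPM at 7 dpf and 47.9, 58.2 and 49.4 CPM at 10 dpf in exposed larvae, against 82.8, 78.6 and 57.4 and 81.7, 73.9 and 83.9 CPM in controls. It fell by 0.73 ± 0.09 (SE) on the log2 scale without overlap at 7 dpf or at 10 dpf.

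Of 50 cytokine, chemokine and NF-kB genes tested, 19 fell (38%, against 6.85% over all genes) and none rose, with a median of -0.34. Besides the genes above these were NF-kB subunits (RELA -0.59, nfkb1 -0.60, nfkb2 -0.53), their regulators NFKBIZ (-0.97) and NFKBIE (-0.97), the chemokines ccl20a.3 (-1.55), ccl34a.4 (-0.97), cxcl18a.1 (-1.11), cxcl18b (-1.06) and cxcl8a (-0.83), and the kinase JAK1 (-0.35). Brakes on inflammation were among them too, namely the cytokine IL10 (-1.63), the feedback inhibitor SOCS3 (-0.65) and IRAK3 (-0.94). In the mean of the list, given as log2 CPM relative to all libraries, the exposed libraries lay between -0.558 and -0.318 at 7 dpf and between -0.276 and 0.022 at 10 dpf. Controls lay between -0.145 and 0.599 at 7 dpf and between 0.230 and 0.445 at 10 dpf, so that the list means did not overlap at either age. Means over all genes tested did not overlap either, within a narrower range. There the exposed libraries lay between -0.026 and -0.006 and the controls between -0.005 and 0.062 at 7 dpf. At 10 dpf they lay between -0.114 and -0.003 and between 0.016 and 0.045. ZC3H12A (ENSDARG00000005271), an RNase that degrades messages of inflammatory cytokines, fell with them, from 15.1 ± 8.33 to 3.83 ± 0.988 CPM at 7 dpf and from 17.2 ± 3.17 to 4.05 ± 0.862 CPM at 10 dpf, a log2 fold change of -2.04 at an adjusted p of 0.00299.

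**Figure D2:**
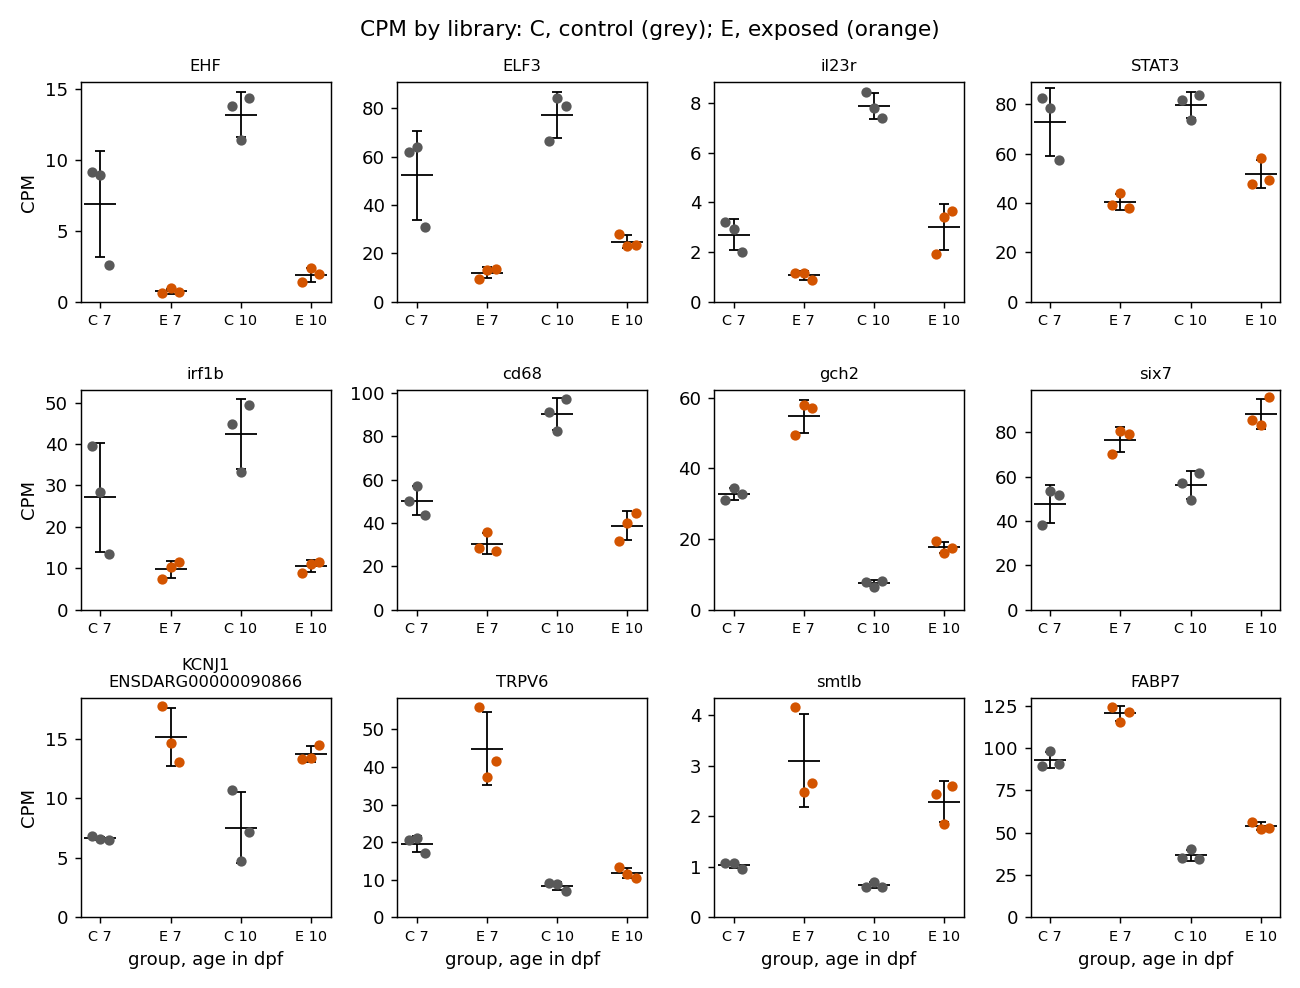
CPM of 12 genes in each library (y axis, linear and starting at 0) by group (x axis: C, control in grey, and E, exposed in orange, with the age in dpf), with bars at the mean ± SD of 3 libraries. EHF, ELF3, il23r, STAT3, irf1b and cd68 are lower and gch2, six7, KCNJ1, TRPV6, smtlb and FABP7 higher in exposed larvae at both ages without overlap. The naming rule required this of EHF, ELF3, il23r, gch2, KCNJ1 and TRPV6. Control replicate 3 at 7 dpf is the lowest control of EHF at 2.60 CPM.

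Genes of the interferon response were lower as well, with a wider spread between libraries. irf1a (ENSDARG00000043492), an interferon regulatory factor that drives antiviral and antigen presentation genes, stood at 0.577, 1.11 and 0.818 CPM in exposed larvae at 7 dpf and 1.27, 1.68 and 1.58 CPM at 10 dpf. Its controls held 10.8, 8.21 and 1.01 CPM and 15.6, 10.6 and 15.3 CPM, so that 1 control at 7 dpf lay below the highest exposed library while the groups at 10 dpf stood far apart (log2 fold change -3.10 ± 0.47 SE, adjusted p = 0.00383). Its paralog irf1b fell from 27.097 ± 13.1 to 9.73 ± 2.07 CPM at 7 dpf and from 42.4 ± 8.38 to 10.5 ± 1.46 CPM at 10 dpf, without overlap.

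Of 38 interferon response genes tested, 13 fell (34.2%, against 6.85% over all genes) and none rose, with a median of -0.78. They included STING1, the adaptor of cytosolic DNA sensing (-1.01), the antiviral Mx GTPases mxa (-1.93), mxc (-1.23) and mxe (-1.65), stat2 (-0.31) and irf9 (-0.52) of the interferon signalling complex, the feedback protease usp18 (-1.0) and the fish kinase pkz (-1.0). irf1b was the only 1 of the 13 whose groups overlapped at neither age, against 703 of all 1580 genes called lower. The list means overlapped at 7 dpf, where exposed replicate 3, at 0.307, lay above controls 2 and 3, at -0.027 and -0.413. The count of 13 was 8 without exposed replicate 1 at 7 dpf, 8, 8 and 7 without exposed replicates 1, 2 and 3 at 10 dpf, 7 and 23 without control replicates 1 and 3 at 7 dpf, and 6 without control replicate 1 at 10 dpf.

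Antigen presentation by MHC class I, the display of peptides that the proteasome cuts inside the cell, was the list with the largest share of falls. Of 28 genes tested 21 fell (75%, against 6.85% over all genes) and none rose, with a median of -0.56. No overlap at either age was seen in 7 of the 21, against 703 of all 1580 genes called lower. Each step of the route had falling members. Cutting was represented by the immunoproteasome subunits PSMB9 (-1.33), psmb13a (-1.80), psmb12 (-1.34), PSMB8 (-1.62) and PSMB10 (-0.40) and the activator subunits PSME1 (-0.78) and PSME2 (-1.26). Transport and loading were represented by TAP1 (-0.84), tap2t (-0.39), tapbpl (-1.16), tapbp.2 (-0.52) and PDIA3 (-0.49), and trimming by ERAP1 (-0.39 for ENSDARG00000013024 and -0.59 for ENSDARG00000021859) and erap2 (-0.35). Among the heavy and light chains, mhc1lja fell by 1.46, mhc1lla by 2.99 and b2m, the light chain, by 1.08.

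PSMB9 (ENSDARG00000000656) stood at 2.3, 1.23 and 0.931 CPM in controls and 0.558, 0.741 and 0.460 CPM in exposed larvae at 7 dpf, and at 4.33, 3.72 and 3.36 and 1.36, 1.70 and 1.48 CPM at 10 dpf (adjusted p = 0.00179). No exposed library reached a control of its age, and the effect was -1.34 at 7 dpf and -1.32 at 10 dpf. The list means lay between -0.882 and -0.525 in exposed larvae and -0.459 and 0.298 in controls at 7 dpf, and between -0.377 and 0.137 against 0.727 and 0.964 at 10 dpf, without overlap at either age. Means over all genes tested, given with the cytokine list, were also lower without overlap, within a narrower range. MHC genes form families of close copies, so that single members are uncertain where reads that map to more than 1 place were not counted.

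Some markers of macrophages were lower. cd68 (ENSDARG00000055504), a glycoprotein of their lysosomes, stood at 28.4, 35.9 and 27.09 CPM in exposed larvae at 7 dpf and 31.6, 40.1 and 44.5 CPM at 10 dpf, against 50.2, 57.0 and 43.5 and 91.4, 82.5 and 97.2 CPM in controls. The difference was wider at 10 dpf, where exposed larvae held less than the lowest value of the controls at 7 dpf in 2 of 3 libraries. MPEG1 (ENSDARG00000043093), a pore protein that macrophages use against bacteria, went from 41.7 ± 8.80 to 17.5 ± 3.31 CPM and from 84.7 ± 5.91 to 41.9 ± 12.01 CPM (log2 fold change -1.13 ± 0.15 SE, adjusted p = 0.00175). MFAP4 (ENSDARG00000038683) is among several genes that share the symbol of a zebrafish macrophage marker. It went from 1.23 ± 0.305 to 0.469 ± 0.227 CPM and from 11.02 ± 3.25 to 1.81 ± 0.872 CPM, a log2 fold change of -2.27 at an adjusted p of 0.00138.

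Of 39 macrophage and neutrophil genes tested 10 fell (25.6%, against 6.85% over all genes) and none rose. The median was -0.33, and 29 did not pass. The others that fell were ctss2.2 (-1.26) of the cathepsin S family, IRF8 (-0.78), which directs macrophage development, cyba (-0.68) of the NADPH oxidase, CORO1A (-0.53), srgn (-0.50), LCP1 (-0.49) and ptprc (-0.46), the common leukocyte phosphatase CD45. Of 5 tested genes with the symbol MFAP4 and 2 with the symbol MPEG1, the 2 described here alone passed. The other MFAP4 genes stood at -0.19 to -0.65 (adjusted p from 0.155 to 0.822) and the other MPEG1 gene at -0.53 (adjusted p = 0.213), by the same edgeR test. The symbol alone does not say which copy is the established marker. The list means overlapped at 7 dpf, with exposed replicate 2 at -0.220 and control replicate 3 at -0.295, and did not at 10 dpf. The count of 10 was 5 without exposed replicate 1 at 7 dpf, 6 and 5 without exposed replicates 1 and 2 at 10 dpf, 6 without control replicate 1 at 7 dpf, and 4 without control replicate 1 at 10 dpf.

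**Figure D3:**
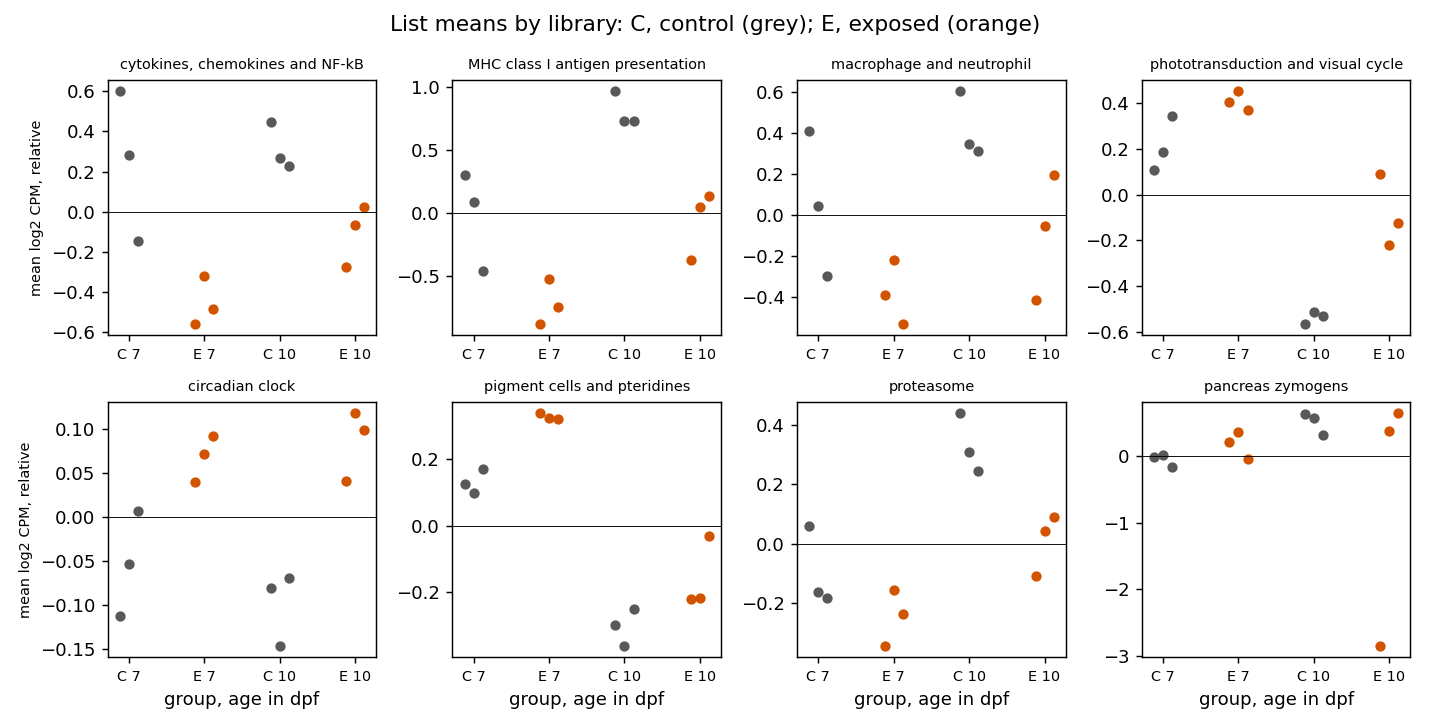
Mean log2 CPM of 8 gene lists in each library, relative to the mean of all 12 libraries (y axis), by group (x axis: C, control in grey, and E, exposed in orange, with the age in dpf). Exposed and control libraries do not overlap at either age for cytokines, MHC class I, phototransduction, clock and pigment genes, while exposed replicate 1 at 10 dpf lies at -2.85 in the pancreas list.

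The other large falls named by the rule were of varied function. jac1 (ENSDARG00000092521), of the jacalin lectin family, stood at 4.12, 2.43 and 0.876 CPM in controls and 0.250, 0.476 and 0.358 CPM in exposed larvae at 7 dpf, and at 23.6, 23.4 and 15.6 and 2.85, 2.41 and 3.41 CPM at 10 dpf (log2 fold change -2.85 ± 0.31 SE, adjusted p = 0.000768). vwa10.1, with a von Willebrand factor A domain, went from 14.9 ± 8.79 to 2.31 ± 1.81 CPM and from 86.2 ± 10.5 to 13.5 ± 3.19 CPM (-2.65). In the controls both genes were higher at 10 dpf (age change 3.02 and 2.52). That no exposed library reached the lowest control of its age was required by the naming rule.

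adgrf8, an adhesion receptor coupled to G proteins, fell by 1.91, grk5, a kinase of such receptors, by 1.92, ca15c, of the carbonic anhydrase family, by 1.83, and parp14rs2.1, related to the ADP-ribosyltransferase PARP14, by 1.90. AGR2 (ENSDARG00000070480), a disulfide isomerase of mucus-secreting cells, went from 50.9 ± 25.7 to 18.1 ± 1.67 CPM at 7 dpf and from 56.0 ± 16.8 to 21.1 ± 1.02 CPM at 10 dpf (-1.45, adjusted p = 0.00616). The fitted values of 2 genes were larger still but rested on few reads and uneven controls. lgals9l4, of the galectin family, had 2, 4 and 1 reads at 7 dpf and 2, 3 and 3 at 10 dpf in exposed larvae. Its controls had 81, 22 and 3 reads at 7 dpf and 2550, 1449 and 108 at 10 dpf. In CPM these controls stood at 1.19, 0.711 and 0.0821 at 7 dpf and 49.9, 29.9 and 3.27 at 10 dpf. Exposed replicate 2 at 7 dpf, at 0.0705 CPM, was just below control replicate 3. The effect at 7 dpf did not pass by edgeR's quasi-likelihood test (adjusted p = 0.528). rnasel4, of the RNase A family, had 0.154, 0.212 and 0.102 CPM at 7 dpf and at most 0.0792 CPM at 10 dpf, against 1.58, 0.647 and 0.465 and 13.6, 30.4 and 5.63 CPM in controls. Of 25 onzin-related, jacalin and galectin genes and their neighbours in the list, 6 fell (24%) and 5 rose (20%), against 6.85% and 3.79% over all genes. The count of rises was 3 without control replicate 1 at 7 dpf, and 3, 3 and 3 without control replicates 1, 2 and 3 at 10 dpf.

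**Figure D4:**
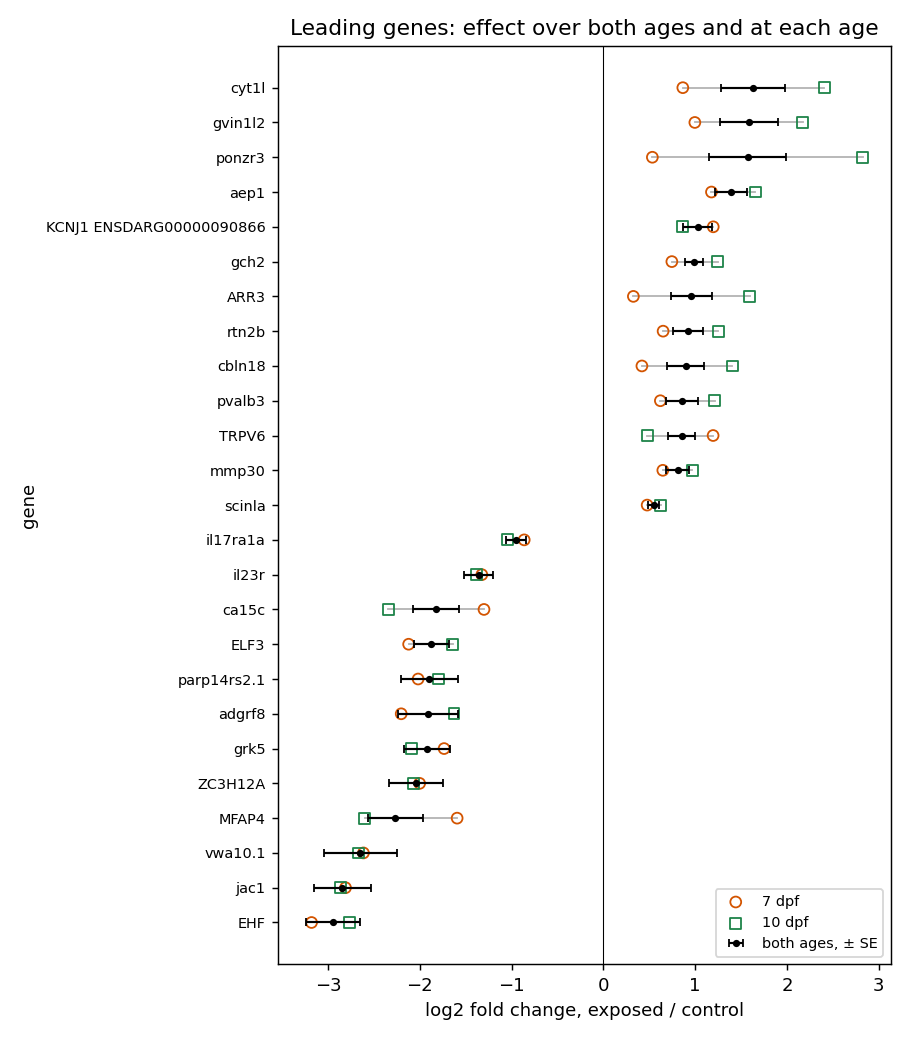
Log2 fold change of exposed over control larvae (x axis) for the genes with the largest rises, the largest falls and the smallest p by the naming rule (y axis), over both ages with ± SE (black) and at 7 dpf (circles) and 10 dpf (squares), without lgals9l4 and rnasel4, whose values of -7.71 and -5.85 lie outside the range. jac1, vwa10.1, ZC3H12A and il23r have nearly the same effect at both ages, whereas ponzr3, at 0.53 and 2.82, differs most among those drawn.

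Protein quality control and ribosome production were lower by small amounts in many genes. Of 44 genes of the constitutive proteasome, the protease that degrades ubiquitin-tagged proteins, 21 fell (47.7%) and none rose, at a median of -0.25. Over all genes 6.85% fell. Of the 21, 7 showed no overlap at either age, against 703 of all 1580 genes called lower. The list means overlapped at 7 dpf and did not at 10 dpf. Both genes with the symbol PSMD11, a lid subunit, fell (-0.40 for ENSDARG00000060150 and -0.36 for ENSDARG00000005134), as did the activator PSME4 (-0.54). For PSMD11 (ENSDARG00000060150), exposed larvae held 37.4, 45.6 and 43.2 CPM at 7 dpf and 40.2, 47.6 and 41.9 CPM at 10 dpf, against 60.1, 49.2 and 47.8 and 65.4, 59.22 and 57.6 CPM in controls, without overlap. The count of 21 was 5 without exposed replicate 1 at 7 dpf, 11, 12 and 10 without exposed replicates 1, 2 and 3 at 10 dpf, 4 without control replicate 1 at 7 dpf, and 4 and 8 without control replicates 1 and 2 at 10 dpf.

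Of 60 heat shock and unfolded protein response genes 15 fell (25%, against 6.85% over all genes) and 1, HSF2 (0.14), rose. The list median was -0.21. Groups overlapped at neither age in 3 of the 15, against 703 of all 1580 genes called lower. The list means overlapped at 7 dpf and did not at 10 dpf. Most of those that fell act in the endoplasmic reticulum: its stress sensor atf6 (-0.36), the chaperones HSPA5 (-0.67), CANX (-0.48) and calr3b (-1.03), the disulfide isomerases PDIA4 (-0.98) and PDIA6 (-0.51), and the degradation factors EDEM1 (-0.71) and HERPUD1 (-0.44). MANF (-1.13) and CRELD2 (-1.05), which are secreted under stress of that compartment, fell too. atf6 (ENSDARG00000012656) stood at 44.7, 39.4 and 41.5 CPM and 40.3, 45.8 and 45.5 CPM in exposed larvae and at 54.4, 56.2 and 47.3 and 58.0, 57.9 and 57.6 CPM in controls of 7 and 10 dpf, without overlap. The count of 15 was 9 without control replicate 1 at 7 dpf, and 8 without control replicate 1 at 10 dpf. The count of rises was 0 without exposed replicate 1 or 3 at 7 dpf, exposed replicate 2 or 3 at 10 dpf, control replicate 1 or 2 at 7 dpf or control replicate 1, 2 or 3 at 10 dpf. It was 2 without exposed replicate 1 at 10 dpf.

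Of 66 lysosome genes 22 fell (33.3%, against 6.85% over all genes) and none rose (median -0.22). Groups overlapped at neither age in 4 of the 22, against 703 of all 1580 genes called lower. The list means overlapped at 7 dpf and did not at 10 dpf. Among those that fell were the cathepsins CTSK (-0.57), CTSB (-0.42) and CTSH (-0.48) and the glycosidases MANBA (-0.49), GLB1 (-0.46) and FUCA1 (-0.77). CTSB (ENSDARG00000055120) went from 237, 207 and 199 CPM in controls to 184, 194 and 183 CPM in exposed larvae at 7 dpf, a narrow gap, and from 273, 278 and 270.0 to 159, 186 and 183 CPM at 10 dpf. The lysosome count was 10, 9 and 9 without exposed replicates 1, 2 and 3 at 10 dpf, 12 without control replicate 1 at 7 dpf, and 9, 10 and 12 without control replicates 1, 2 and 3 at 10 dpf. Macrophages are rich in lysosomes, and the part of the fall of macrophage markers in these values was not tested.

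Of 93 ribosome biogenesis genes 16 fell (17.2%, against 6.85% over all genes) and none rose (median -0.18). The falls were led by the processome subunits UTP20 (-0.29), HEATR1 (-0.30) and NOL10 (-0.25), with the RNA polymerase I subunits POLR1A (-0.21) and POLR1B (-0.26) among them. None of 79 cytosolic ribosomal proteins passed, with a median of 0.03. Falls among the biogenesis genes numbered 9 with RLE scaling and 11 with upper quartile scaling. The biogenesis count was 5 without exposed replicate 1 at 7 dpf, 6 and 5 without exposed replicates 1 and 3 at 10 dpf, 5, 10 and 30 without control replicates 1, 2 and 3 at 7 dpf, and 6, 5 and 10 without control replicates 1, 2 and 3 at 10 dpf. Of 55 antioxidant genes 4 fell (7.27%) and 1 rose (1.82%), shares near those of all genes. Their regulator NFE2L2 (Nrf2) fell from 233 ± 14.1 to 193 ± 13.7 CPM at 7 dpf and from 268 ± 22.7 to 202 ± 25.7 CPM at 10 dpf (-0.34, adjusted p = 0.0103), glutathione reductase, GSR, by 0.33, the peroxidase prdx1 by 0.50 and TALDO1 by 0.31, while TKT rose by 0.28. The count of rises was 0 without exposed replicate 2 at 7 dpf, exposed replicate 2 or 3 at 10 dpf, control replicate 1 or 2 at 7 dpf or control replicate 1 or 2 at 10 dpf. It was 2 without control replicate 3 at 7 dpf or control replicate 3 at 10 dpf. It was 3 without exposed replicate 1 at 10 dpf.

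Genes of the aryl hydrocarbon receptor, a sensor of foreign chemicals, moved in either direction. Of 21 tested 5 fell (23.8%) and 1 rose (4.76%), against 6.85% and 3.79% over all genes. With RLE or upper quartile scaling 3 fell. The receptor ahr2 (ENSDARG00000021833) fell (-0.22), without overlap, at 141, 147 and 147 CPM and 165, 164 and 152 CPM in exposed larvae against 172, 175 and 165 and 180.2, 184 and 191 CPM in controls, while ahr1b rose (0.28), a call lost without control replicate 2 at 10 dpf (2 rises without exposed replicate 1 at 10 dpf or control replicate 3 at 7 dpf). The repressor ahrra fell by 0.98, with -1.65 at 7 dpf and -0.41 at 10 dpf, a difference that did not pass (adjusted p = 0.0653). The count of 5 was 2 and 3 without exposed replicates 1 and 3 at 7 dpf, 2, 2 and 3 without exposed replicates 1, 2 and 3 at 10 dpf, 2 and 3 without control replicates 1 and 2 at 7 dpf, and 3, 3 and 2 without control replicates 1, 2 and 3 at 10 dpf.

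Pituitary hormones gave the smallest p of all named genes. lhb (ENSDARG00000099363), the beta chain of luteinizing hormone, had 3, 5 and 1 reads at 7 dpf and 4, 3 and 3 reads at 10 dpf in exposed larvae, against 47, 22 and 14 and 53, 42 and 30 reads in controls. Every exposed library had at most 5 reads and every control at least 14, and lhb fell by 3.30 ± 0.27 (SE) on the log2 scale (adjusted p = 0.000192). smtlb (ENSDARG00000017251), which encodes the fish pituitary hormone somatolactin beta, moved the other way. It stood at 4.16, 2.49 and 2.66 CPM at 7 dpf and 2.44, 1.84 and 2.59 CPM at 10 dpf in exposed larvae against 1.08, 1.07 and 0.958 and 0.607, 0.702 and 0.605 CPM in controls, without overlap (log2 fold change 1.70 ± 0.16 SE, adjusted p = 0.000329). prl2, a prolactin, rose by 0.97 at levels below 1 CPM, and tsc22d3, a target of the glucocorticoid receptor, by 0.33. Of 29 genes in the list of cortisol synthesis and pituitary hormones 3 rose and 1 fell, and the other 25 did not pass. The share of rises was above the 3.79% over all genes, and the share of falls was below the 6.85% over all genes. The count of rises was 5 without exposed replicate 1 at 10 dpf. That of falls was 2 without exposed replicate 2 at 7 dpf or control replicate 3 at 7 dpf.

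Genes of ionocytes, the skin cells that take up salts, held several rises. Of 52 tested 9 rose (17.3%) and 3 fell (5.77%), against 3.79% and 6.85% over all genes, with a median of 0.06. TRPV6 (ENSDARG00000014496), the epithelial calcium channel, went from 20.6, 21.1 and 17.2 CPM in controls to 55.9, 37.2 and 41.6 CPM in exposed larvae at 7 dpf and from 9.26, 8.88 and 7.14 to 13.3, 11.5 and 10.6 CPM at 10 dpf (log2 fold change 0.85 ± 0.15 SE, adjusted p = 0.00497). The effect was 1.19 at 7 dpf and 0.48 at 10 dpf, and the difference between the ages did not pass. Potassium channels that share the symbol KCNJ1 made up 5 of the rises, from 0.62 to 1.03. The largest was ENSDARG00000090866, from 6.64 ± 0.150 to 15.2 ± 2.41 CPM at 7 dpf and from 7.54 ± 2.98 to 13.7 ± 0.657 CPM at 10 dpf (adjusted p = 0.00235). These genes are close copies, and reads that map to more than 1 place were not counted, so that the level of each copy is uncertain. The sodium pump subunits went both ways, with atp1a1a.2 higher (0.42) and atp1a1a.3 and atp1a1a.5 lower (-0.38 and -0.52), and the sodium chloride cotransporter slc12a10.2 was lower (-0.51). The count of falls was 1 without exposed replicate 3 at 10 dpf.

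Keratins, the filament proteins of the skin, rose in 9 of 20 genes tested (45%, against 3.79% over all genes) and fell in none. The list median was 0.39. Groups overlapped at neither age in 1 of the 9, against 449 of all 874 genes called higher. The list means overlapped at 7 dpf and did not at 10 dpf. The type I keratin cyt1l went from 278, 282 and 511 CPM to 782, 531 and 638 CPM at 7 dpf, with exposed replicate 2 just above control replicate 3, and from 36.6, 34.3 and 33.1 to 266, 176 and 109.5 CPM at 10 dpf (1.63 ± 0.35 SE, adjusted p = 0.0186). krt4 and krt5, the keratins of the surface layer of the epidermis, rose by 0.73 and 0.66. In krt4 control replicate 3 at 7 dpf, with 4057 CPM, lay above exposed replicate 3, with 3839 CPM, and at 10 dpf the exposed libraries (2609 to 2836 CPM) were above the controls (1489 to 1609 CPM). The keratin count was 5 without control replicate 2 at 10 dpf. Without control replicate 1 or 2 at 10 dpf cyt1l did not pass (adjusted p up to 0.0576).

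Phototransduction and the visual cycle, the reactions that turn light into a signal in rods and cones, held the most rises. Of 83 genes tested 34 rose (41%, against 3.79% over all genes) and none fell (median 0.29). No overlap at either age was seen in 25 of the 34, against 449 of all 874 genes called higher. The transcription factor six7 (ENSDARG00000070107), which zebrafish cones need for their green opsins, stood at 70.06, 80.4 and 79.4 CPM at 7 dpf and 85.4, 83.4 and 96.1 CPM at 10 dpf in exposed larvae, against 38.0, 53.4 and 51.6 and 57.1, 49.4 and 61.8 CPM in controls. Its effect was 0.69 and 0.66 at the ages, and slc24a2, the cone exchanger of sodium, calcium and potassium, was as even (0.64 and 0.61). gnb3b, the beta subunit of cone transducin, went from 304 ± 22.4 to 397 ± 12.4 CPM and from 112 ± 4.66 to 180.5 ± 20.8 CPM.

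Rises ran along the whole cone cascade: the opsins opn1mw1 (0.76), opn1lw2 (0.77) and opn1sw2 (0.56), the transducin GNAT2 (0.53), the phosphodiesterase PDE6C (0.44), the channel CNGA3 (0.76 for ENSDARG00000012297 and 0.42 for ENSDARG00000070726), the guanylate cyclase gucy2d (0.70), the kinases GRK7 (0.72 for ENSDARG00000020602) and grk1b (0.42), and the arrestin ARR3. ARR3 (ENSDARG00000098475) went from 179.7, 192 and 205 CPM to 231, 261 and 229.9 CPM at 7 dpf and from 82.4, 52.6 and 62.8 to 205, 189 and 203 CPM at 10 dpf. Its rise was larger at 10 dpf (1.59) than at 7 dpf (0.33), with an adjusted p of 0.0176 for the difference, and over both ages it did not pass without control replicate 1 or 3 at 10 dpf (adjusted p up to 0.0634). The transcription factors CRX (0.29) and NR2E3 (0.39), which act in photoreceptors, rose as well. In the list means, exposed libraries lay at 0.368 to 0.451 and controls at 0.108 to 0.343 at 7 dpf, and at -0.219 to 0.091 and -0.565 to -0.514 at 10 dpf.

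**Figure D5:**
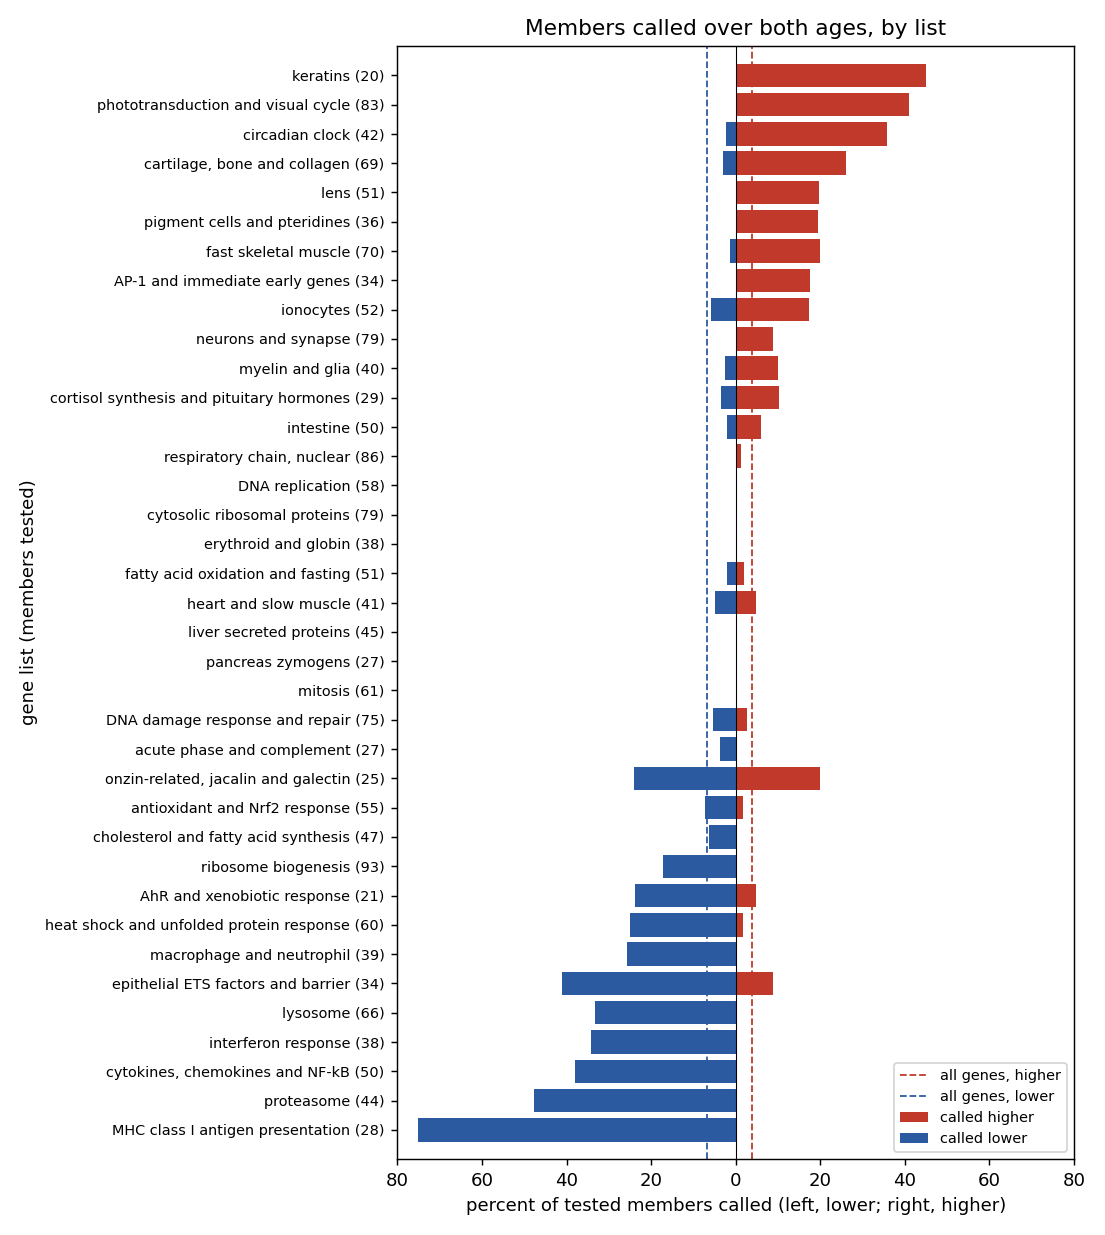
Percent of the tested members of each of 37 gene lists that were called higher (right, red) or lower (left, blue) over both ages, with the number of members tested in brackets on the y axis and the shares over all genes, 3.79% higher and 6.85% lower, as dashed lines. MHC class I and proteasome genes lead the falls and keratin, phototransduction and clock genes the rises, while 6 lists have no member called.

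Of 51 lens genes 10 rose (19.6%, against 3.79% over all genes) and none fell (median 0.23). Among the rises were the lens water channel MIP (0.44 for ENSDARG00000037285) and the crystallins cryba1l2 (0.29) and crygm2c (0.54). The lens count was 6 without exposed replicate 1 at 7 dpf, 6 and 4 without exposed replicates 1 and 3 at 10 dpf, 5 and 18 without control replicates 2 and 3 at 7 dpf, and 3 and 3 without control replicates 1 and 3 at 10 dpf.

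The circadian clock, a loop in which PER and CRY proteins repress their own transcription, held 15 rises and 1 fall among 42 genes tested (median 0.16). Of the list, 35.7% rose and 2.38% fell, against 3.79% and 6.85% over all genes. Repressors and other targets of the loop rose: PER1 (0.54 for ENSDARG00000012499 and 0.35 for ENSDARG00000056885), PER2 (0.38), CRY2 (0.41), CRY1 (0.32 for ENSDARG00000011583), ciarta (0.44), NR1D1 (0.35), nr1d2a (0.46) and dbpa (0.26). The activator CLOCK (ENSDARG00000011703) fell by 0.27. The count of falls was 0 without exposed replicate 1 at 7 dpf, exposed replicate 1, 2 or 3 at 10 dpf, control replicate 1 or 2 at 7 dpf or control replicate 2 or 3 at 10 dpf. PER1 (ENSDARG00000012499) stood at 274, 278 and 316 CPM at 7 dpf and 249, 244 and 248 CPM at 10 dpf in exposed larvae, against 209, 223 and 258 and 155, 132 and 157 CPM in controls. No overlap at either age was seen in 12 of the 16 called clock genes, against 1152 of all 2454 called genes. Clock transcripts depend on the hour of sampling, which is not given in the sources used here for either group.

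Pigment cell and pteridine genes rose in 7 of 36 tested (19.4%, against 3.79% over all genes) and fell in none (median 0.16). gch2 (ENSDARG00000099101), the enzyme that opens pteridine synthesis in yellow pigment cells, rose without overlap. It stood at 49.4, 57.9 and 56.9 CPM at 7 dpf and 19.3, 16.1 and 17.5 CPM at 10 dpf in exposed larvae against 31.1, 34.3 and 32.6 and 7.91, 6.40 and 8.02 CPM in controls (log2 fold change 0.98 ± 0.10 SE, adjusted p = 0.000357). The purine enzymes ATIC (0.34) and PAICS (0.34), pnp4a (0.62) of the reflecting iridophores, aox5 (0.35) of xanthophores and the melanin enzyme TYRP1 (0.19 for ENSDARG00000056151) rose as well. The count of 7 was 4 and 4 without control replicates 1 and 2 at 7 dpf, and 4 without control replicate 2 at 10 dpf, while the list means of exposed and control larvae did not overlap at either age.

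Immediate early genes rose in 6 of 34 tested (17.6%, against 3.79% over all genes) and fell in none (median 0.20). By age the list median was 0.03 at 7 dpf and 0.32 at 10 dpf. The list means of exposed and control larvae overlapped at 7 dpf and did not at 10 dpf. The 6 were the transcription factors egr2a (0.65), NR4A1 (0.59) and mych (0.27) and the MAP kinase phosphatases DUSP1 (0.26), DUSP2 (0.41) and DUSP5 (0.35). egr2a (ENSDARG00000044098) had nearly the same effect at 7 and 10 dpf (0.66 and 0.64), at 33.6, 36.5 and 23.7 and 28.8, 32.0 and 37.5 CPM in exposed larvae against 18.4, 21.5 and 19.9 and 20.9, 22.6 and 19.8 CPM in controls.

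Tissue genes of skeleton and muscle gave small rises. Of 69 cartilage, bone and collagen genes 18 rose (26.1%) and 2 fell (2.9%), with a median of 0.17. Over all genes 3.79% rose and 6.85% fell. In the list, the cartilage collagens COL2A1 (0.61 for ENSDARG00000069093), COL11A1 (0.59) and col11a1b (0.42) led the rises. The falls were in RUNX3 (-0.25) and the protease MMP14 (-0.27). The count of 18 was 10 without exposed replicate 3 at 7 dpf, 8 without exposed replicate 3 at 10 dpf, 9 without control replicate 1 at 7 dpf, and 6 and 8 without control replicates 1 and 2 at 10 dpf. The count of 2 falls was 0 without exposed replicate 2 at 10 dpf. It was 1 without exposed replicate 1, 2 or 3 at 7 dpf, exposed replicate 3 at 10 dpf, control replicate 1 or 2 at 7 dpf or control replicate 1 or 2 at 10 dpf. It was 4 without exposed replicate 1 at 10 dpf. Of 70 fast muscle genes 14 rose (20%, against 3.79% over all genes) and 1 fell (1.43%, against 6.85%), with a median of 0.13. The rises included the calcium buffer pvalb3 (0.85), pyruvate kinase, PKM (0.40), and JPH1 (0.34) of the junctions that couple excitation to calcium release. The count of muscle rises was 7 and 7 without exposed replicates 2 and 3 at 10 dpf, 7 without control replicate 1 at 7 dpf, and 6, 7 and 8 without control replicates 1, 2 and 3 at 10 dpf. That of falls was 2 without exposed replicate 2 or 3 at 10 dpf. It was 3 without control replicate 3 at 10 dpf.

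The member that fell had the largest change among the called muscle genes. myhb (ENSDARG00000001993), a fast myosin heavy chain, stood at 32.6, 38.5 and 37.2 CPM at 7 dpf and 54.3, 59.4 and 57.5 CPM at 10 dpf in exposed larvae, and at 94.7, 76.5 and 89.2 and 89.98, 73.9 and 119.9 CPM in controls. All 6 exposed libraries lay below all 6 controls, and myhb fell by 1.0 ± 0.13 (SE) on the log2 scale (adjusted p = 0.00109). Heart and slow muscle genes went either way, with 2 rises and 2 falls among 41 (4.88% each, near the shares over all genes). The count of rises was 0 without exposed replicate 3 at 10 dpf, control replicate 1 at 7 dpf or control replicate 1, 2 or 3 at 10 dpf. It was 1 without exposed replicate 2 or 3 at 7 dpf, exposed replicate 1 or 2 at 10 dpf or control replicate 2 at 7 dpf. That of falls was 0 without exposed replicate 1 at 7 dpf or control replicate 1 or 2 at 7 dpf. It was 1 without exposed replicate 2 at 7 dpf, exposed replicate 3 at 10 dpf or control replicate 1, 2 or 3 at 10 dpf.

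In the nervous system, 4 of 40 glia and myelin genes rose (10%) and 1 fell (2.5%), and 7 of 79 neuron genes rose (8.86%). Over all genes 3.79% rose and 6.85% fell. By age the list median was 0.02 at 7 dpf and 0.22 at 10 dpf for glia, and -0.01 and 0.27 for neurons. The list means of both overlapped at 7 dpf and did not at 10 dpf. SLC1A2 (ENSDARG00000052138), the glutamate transporter of glia, stood at 188, 213 and 202 CPM at 7 dpf and 132, 113 and 113 CPM at 10 dpf in exposed larvae, against 129.9, 141 and 143 CPM and 89.0, 94.2 and 84.6 CPM in controls (log2 fold change 0.48 ± 0.06 SE, adjusted p = 0.000762). FABP7 (ENSDARG00000007697), the fatty acid binding protein of radial glia, went from 93.0 ± 4.83 to 121 ± 4.51 CPM at 7 dpf and from 36.7 ± 3.18 to 53.9 ± 2.3 CPM at 10 dpf (0.46, adjusted p = 0.000762). Neither gene overlapped between the groups at either age. nes, the progenitor filament nestin, fell by 0.35, a call lost without exposed replicate 3 at 10 dpf (adjusted p = 0.0515). The count of glial rises was 2 without exposed replicate 2 or 3 at 10 dpf, control replicate 1 at 7 dpf or control replicate 1, 2 or 3 at 10 dpf. That of falls was 0 without exposed replicate 3 at 10 dpf. It was 2 without control replicate 3 at 7 dpf. Of neuron genes ATP1B2 (0.37), a sodium pump subunit, had the smallest p, and the vesicle transporters of GABA, SLC32A1 (0.47), and of glutamate, SLC17A7 (0.30), were among the rises, and that of SLC32A1 was lost without any 1 of 4 libraries (adjusted p up to 0.0631). The neuron count was 4, 14 and 4 without exposed replicates 1, 2 and 3 at 7 dpf, 4 and 2 without exposed replicates 2 and 3 at 10 dpf, 2 and 13 without control replicates 1 and 3 at 7 dpf, and 2, 1 and 3 without control replicates 1, 2 and 3 at 10 dpf.

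The remaining large rises were of varied function. gvin1l2 (ENSDARG00000102364), of the family of very large interferon-inducible GTPases, went from 78.1, 135 and 238 CPM to 277, 372 and 249 CPM at 7 dpf and from 88.0, 92.7 and 62.5 to 313, 406 and 375 CPM at 10 dpf (1.58, adjusted p = 0.0135), while the 13 called genes of the interferon list were lower. aep1 (ENSDARG00000039099), an aerolysin-like protein, stood at 43.4, 36.6 and 37.5 CPM and 14.96, 9.66 and 7.76 CPM in exposed larvae against 13.8, 17.0 and 21.3 and 3.76, 3.74 and 2.63 CPM in controls of 7 and 10 dpf (1.39, adjusted p = 0.00118). scinla, of the gelsolin family of actin-severing proteins, rose with little spread, from 94.1 ± 9.64 to 131 ± 4.83 CPM and from 61.8 ± 2.74 to 95.1 ± 5.85 CPM (0.55, adjusted p = 0.000519).

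The metalloproteinase mmp30 (0.81), the reticulon rtn2b (0.92), the cerebellin cbln18 (0.90) and ponzr3 of the onzin-related family (1.57) completed the largest rises. Cubilin, CUBN, and its adaptor dab2, which take up protein in the kidney tubule and gut, rose by 0.49 and 0.33. Without control replicate 1 at 7 dpf ponzr3 did not pass, nor without exposed replicate 2 at 7 dpf or any 1 library at 10 dpf (adjusted p up to 0.109).

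Of known targets of the DNA damage response, cdkn1a, mdm2 and CCNG1 did not pass. cdkn1a, which arrests the cell cycle, stood at 102, 95.0 and 80.3 CPM at 7 dpf and 29.1, 33.1 and 37.8 CPM at 10 dpf in exposed larvae against 64.5, 79.3 and 76.1 and 38.7, 32.4 and 28.2 CPM in controls (log2 fold change 0.17 ± 0.10 SE, adjusted p = 0.306). All 3 exposed libraries were above the controls at 7 dpf and the groups overlapped at 10 dpf. mdm2, the ubiquitin ligase of that response, was at 0.02 ± 0.07 (SE) and the cyclin CCNG1 at 0.01 ± 0.07 (SE), with adjusted p of 0.92 and 0.929, and both overlapped between the groups. Of 75 genes of DNA damage and repair 4 fell and 2 rose, below the shares of 6.85% and 3.79% over all genes. The falls were in the death receptor fas (-1.02, at 0.388 to 1.84 CPM), the end-joining protein XRCC5 (-0.29), bida (-0.42) and BAX (-0.22), both of cell death, and the rises in sesn3 (0.24) and PLK2 (0.27). XRCC5 lost its call without any 1 of 7 libraries (adjusted p up to 0.0892) and bida without any 1 of 9 (adjusted p up to 0.0851). The count of falls was 1 without exposed replicate 1 at 7 dpf, exposed replicate 1 or 3 at 10 dpf, control replicate 1 at 7 dpf or control replicate 1 or 2 at 10 dpf. It was 2 without exposed replicate 3 at 7 dpf, exposed replicate 2 at 10 dpf or control replicate 2 at 7 dpf. That of rises was 0 without exposed replicate 1 at 7 dpf, exposed replicate 2 or 3 at 10 dpf, control replicate 1 at 7 dpf or control replicate 2 or 3 at 10 dpf. It was 1 without exposed replicate 3 at 7 dpf or control replicate 1 at 10 dpf.

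None of 58 DNA replication, 61 mitosis, 38 erythroid and globin, 27 pancreas, 45 liver and 79 ribosomal protein genes passed over both ages by edgeR's quasi-likelihood test. At an unadjusted p under 0.05 there were 2 higher and 3 lower for DNA replication, 2 lower for mitosis, 4 higher for erythroid genes, 3 lower for liver, and 0 for pancreas and ribosomal proteins. DESeq2 called 2 erythroid and 1 DNA replication gene higher, limma voom 1 of each, and the fit of 4 group means 8 mitosis genes lower and 1 DNA replication gene higher. Without single libraries at most 3 members of any of these lists were called. For mitosis the list median was 0.21 at 7 dpf and -0.73 at 10 dpf, of opposite sign. The same held for DNA replication (0.09 and -0.28), pancreas (0.20 and -0.45), liver (0.07 and -0.46) and erythroid genes (0.12 and -0.03). Effects of opposite sign partly cancel in the average over both ages. At 10 dpf the list means of mitosis and of DNA replication were lower in exposed larvae without overlap. Those of pancreas and liver overlapped at both ages. Other lists with few called members were the nuclear respiratory chain (cox4i1l higher), acute phase and complement (c4 lower), fatty acid oxidation (CRAT higher, PDK4 lower), synthesis of cholesterol and fatty acids (ACLY, ELOVL1 and PMVK lower) and intestine (3 higher and AGR2 lower, with 7 higher without exposed replicate 1 at 10 dpf). All of these but CUBN, dab2, PDK4 and AGR2 among the named genes lost their call when some single library was left out. Intestine genes were called higher in 6% and lower in 2%, against 3.79% and 6.85% over all genes. Of 86 respiratory chain genes 1.16% rose, and of 27 acute phase and complement genes 3.7% fell. Of 51 fatty acid oxidation genes 1.96% rose and 1.96% fell, and of 47 cholesterol and fatty acid synthesis genes 6.38% fell. In these lists other than intestine no share exceeded that over all genes. The intestine count of falls was 2 without exposed replicate 2 at 7 dpf or exposed replicate 1 at 10 dpf. It was 3 without control replicate 3 at 7 dpf.

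The effect differed in size between the ages in 15 of the called genes, against 62 of all 23075 genes tested (0.269%). In each of the 15 the larger effect was at 10 dpf. Higher and more so at 10 dpf were ponzr4 (0.75 at 7 dpf and 3.47 at 10 dpf), ponzr3 (0.53 and 2.82) and the photoreceptor genes ARR3, GRK7 (ENSDARG00000020602, 0.24 and 1.2) and impg1a (0.06 and 0.83). Lower and more so at 10 dpf were the lysosomal glycosidases FUCA1 (-0.18 and -1.36), FUCA2 (-0.09 and -0.84) and GLB1 (-0.14 and -0.77), the ATP-gated channel P2RX4 (-0.69 and -5.87), the sulfotransferase sult1st7 (-0.70 and -3.51), tspan37 (-0.34 and -1.13) and atp1a1a.3 (-0.05 and -0.71). ENOSF1, CHST12 and si:ch211-214p13.7 were the others. The count of 15 ran from 0 to 16 when single libraries were left out, and it was 0 without control replicate 1 at 10 dpf, 2 without control replicate 2 or exposed replicate 3 at 10 dpf or control replicate 2 at 7 dpf, 3 without exposed replicate 3 at 7 dpf, 4 without exposed replicate 1 at 7 dpf, 5 without exposed replicate 2 at 7 dpf or exposed replicate 1 or 2 at 10 dpf, and 6 without control replicate 1 at 7 dpf.

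Levels also changed with age in the controls, which enter both comparisons, so that these values are only set side by side. Between 7 and 10 dpf the controls fell in cyt1l by 3.36, in pvalb3 by 2.69, in gch2 by 2.13 and in ARR3 by 1.54 on the log2 scale, genes that were higher in exposed larvae. They rose in MFAP4 by 3.12, in jac1 by 3.02, in il23r by 1.53 and in PSMB9 by 1.3, genes that were lower in them. Changes with age and with exposure had the same direction in other named genes. The controls rose in crygm2c by 1.12 and in cryba1l2 by 0.62, genes that were higher in exposed larvae. They fell by 1.39 in tnnt2c of the heart and slow muscle list, which was lower in exposed larvae. That call was lost without any 1 of 4 libraries (adjusted p up to 0.0746). Others with large exposure effects had small values with age, among them STAT3 (0.13, adjusted p = 0.471), myhb (0.12, adjusted p = 0.566), il17ra1a (0.18, adjusted p = 0.404), KCNJ1 (ENSDARG00000090866, 0.18, adjusted p = 0.581) and egr2a (0.08, adjusted p = 0.704).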

How the data were processed

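RNA of entire larvae was extracted with TRIzol and chloroform, and stranded mRNA libraries were sequenced in pairs of reads, per the labels' protocols. The authors deposited raw read counts per gene, made with STAR on the zebrafish genome GRCz11 per the submitters' processing notes; the annotation release is not given in the sources used here. The deposited counts of the sense strand of the kit were used as they stood. Reads on no gene were left out of library sizes (unmapped 4.56 to 5.43%, multimapping 14.4 to 14.8%, no feature 11.3 to 14.5%, ambiguous 0.586 to 0.634%).

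Of 32057 genes 23075 passed edgeR's filter by the 4 groups (minimum count 10, minimum total 15). TMM scaling and edgeR 4.0.16's robust quasi-likelihood test (R 4.3.3) with age plus exposure (9 residual degrees of freedom) were applied, with two-sided p adjusted by Benjamini and Hochberg over all genes tested. Effects at each age and their difference came from a fit of 4 group means (8 residual degrees of freedom). The method was tested on simulated data. Alternatives were RLE and upper quartile scaling, 2 filters, replicate blocks, counts without regard to strand, a fold threshold of 1.5, the fit of 4 group means, limma 3.58.1, DESeq2 1.42.0 and leaving out each library. Replicates are labelled biological, and p-values set effects against the spread between these libraries. In the fit of age plus exposure, an effect that differs between ages counts as part of that spread.

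Members and gene lists were chosen with earlier results of these data known. The 12 largest rises, the 12 largest falls and the 6 smallest p were named by rule among called genes with a symbol. These genes also had to show no overlap at either age and a mean of at least 5 CPM. Up to 3 called members of each of 37 lists, those with the smallest p, were named whatever their overlap and level. The genes cdkn1a, mdm2 and CCNG1 were named besides. Other list members named in the text were chosen after their values were seen. Gene names came from a table of IDs and symbols (28988 of 32057 matched), and 3181 tested genes share a symbol with another. One item is not reported here.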

Additional observations from a re-analysis of the deposited data

Results flagged for a closer look

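The exposure effect of ponzr3, of the onzin-related family, differed between the ages by 2.29 on the log2 scale (10 dpf minus 7 dpf, adjusted p = 0.0227 by edgeR's quasi-likelihood test of the interaction), with 0.53 at 7 dpf and 2.82 at 10 dpf. In CPM the exposed libraries lay between 14.9 and 23.8 at both ages, while the controls went from 11.4 to 16.1 at 7 dpf to 1.24 to 3.09 at 10 dpf. The cone arrestin ARR3 differed between the ages by 1.27 (adjusted p = 0.0176 by the same test), with 0.33 and 1.59. Its controls fell from 205 CPM at most at 7 dpf to 82.4 CPM at most at 10 dpf, and the exposed libraries stayed at or above 189 CPM.

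For il17a/f1, exposed replicate 2 at 10 dpf, with 1 read, stood out from the other 5 exposed libraries, which had 0 reads. With values centred within each age, the gap between it and its nearest neighbour was 0.667 of the range over the 6 libraries, above Dixon's critical value for 6 values. Chance alone puts about 1 in 20 groups of continuous values above that value, and 218 groups of 6 libraries were checked. With 0 reads in the other 5 libraries, the ratio is 0.667 for any nonzero value, so that rate does not apply here. The gap rests on 1 read.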

How the results depend on the processing

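All 106 named genes that were called kept their direction in every alternative in which they were tested. Of these, 7, at low levels in exposed larvae, were not tested in at least 1. Among the 7 were lgals9l4 and rnasel4, whose controls at 10 dpf stood at 3.27 to 49.9 CPM and at 5.63 to 30.4 CPM. Of the 106, 88 kept their call whichever single library was left out, 75 were tested and kept it in all alternatives but the test against a fold of 1.5, and 18 were tested and kept it in all. Counts depended more on the setting. Genes called higher numbered 874 as reported, 1415 with limma voom, 1465 with DESeq2, 4 against a fold of 1.5 and 448 to 1323 without single libraries. Genes called lower numbered 1580, with 154 against a fold of 1.5 and 806 to 2308 without single libraries. Calls of 1 direction at both ages numbered 2449, with 3686 by voom, 158 against a fold of 1.5 and 1267 to 3619 without single libraries. Calls without overlap at either age numbered 1152, with 113 against a fold of 1.5 and 840 to 2551 without single libraries, where fewer libraries had to be separated. Genes whose effect differed between ages numbered 15, with 58 when adjusted over the called genes alone and 0 to 16 without single libraries. Without control replicate 3 at 7 dpf 3631 genes were called, 2404 of them shared with the 2454 reported. The cause of these shifts was not tested.

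Same-numbered exposed and control libraries of an age did not deviate together (r from -0.200 to 0.065, 0 of 6 pairs over 0.1). For differently numbered ones of an age r ran from -0.186 to 0.193, and for same-numbered libraries of different ages from -0.174 to 0.224. These few correlations cannot exclude that the numbers pair the libraries. With a replicate block of the 6 pairs, 290 genes were called higher and 737 lower, 1027 in 1 direction at both ages and 652 without overlap, and 0 differed between ages. With the replicate number as a block, 1865 genes were called and 4 differed between ages. Precision was limited by 3 libraries a group and, for genes with few reads such as lhb and il17a/f1, by read counts.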
